A study of Mus musculus with 6 samples.

Results

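A set of 10 genes of the smooth muscle contractile programme were followed in mouse lung: Acta2, Actg2, Lmod1, Tagln, Cnn1, Smtn, Synpo2, Myh11, Des and Myocd. They are 10 of the 25860 genes in the count table. All were named in advance as a set because their values in RAG1-/- Sgo1-/+ lung had already been compared with those in RAG1-/- lung, so what follows for them is a description of that contrast, without a test. RNA had been extracted from lung tissue of normal appearance, 1 library per mouse, and all mice were untreated and 12 months old. Each genotype had 3 of them, with RAG1-/- numbered as replicates 1 to 3 and RAG1-/- Sgo1-/+ as replicates 4 to 6. RAG1-/- removes the recombinase needed for mature B and T cells, and both groups carry this genotype by their labels. Sgo1-/+ mice carry 1 disrupted copy of shugoshin 1 in every cell, not in smooth muscle in particular, and the study used them as a model of chromosome instability. The question was how these genes stood in RAG1-/- Sgo1-/+ lung against its RAG1-/- control.

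Smooth muscle surrounds the airways and the walls of blood vessels in the lung, and contracts when myosin II filaments pull on filaments of actin. Mature smooth muscle uses its own versions of proteins that other cells also make, among them alpha and gamma smooth muscle actin, smooth muscle myosin heavy chain, calponin, transgelin and smoothelin. Many of these genes carry CArG boxes, to which serum response factor (SRF) binds, and myocardin is the coactivator of SRF that is most restricted to smooth and cardiac muscle. MCAT elements, bound by TEAD factors, are a further sequence known from smooth muscle promoters. In whole lung, a larger number of smooth muscle cells and more RNA per cell cannot be told apart.

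Promoter sequence, the 250 bases before the gene's start, was found in RefSeq (GRCm38.p6) for 6 of the 10 genes, namely Acta2, Cnn1, Des, Lmod1, Smtn and Synpo2. Acta2 and Cnn1 are shown because both had the high values in RAG1-/- Sgo1-/+ lung described below. They differ in their motif content, and the capitals mark matches to the CArG box with 1 base of its A/T core changed to G or C, or to the MCAT element CATTCC on either strand. The first stretch lies at chr19:34255374-34255623 on the minus strand and the second at chr9:22099003-22099252 on the plus strand, both written 5′ to 3′ along the gene.
Acta2: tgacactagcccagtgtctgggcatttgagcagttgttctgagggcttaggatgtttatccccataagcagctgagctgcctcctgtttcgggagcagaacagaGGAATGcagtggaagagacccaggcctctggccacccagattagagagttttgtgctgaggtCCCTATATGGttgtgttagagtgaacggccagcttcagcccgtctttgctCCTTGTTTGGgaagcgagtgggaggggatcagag
Cnn1: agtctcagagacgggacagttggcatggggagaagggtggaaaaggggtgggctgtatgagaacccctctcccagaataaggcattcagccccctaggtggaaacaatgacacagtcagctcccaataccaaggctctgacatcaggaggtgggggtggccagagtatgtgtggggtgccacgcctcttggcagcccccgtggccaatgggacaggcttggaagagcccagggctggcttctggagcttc

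The Acta2 promoter held 2 such CArG-like stretches, at -84 to -75 and at -34 to -25 from the start, and an MCAT element on the opposite strand at -146 to -141. No CArG box, exact or with 1 changed base, and no MCAT element stood in the 250 bases of Cnn1, Des or Synpo2. Lmod1 had an MCAT element at -130 to -125 and Smtn had one at -222 to -217. Over 27025 RefSeq promoters of the same length, 7.38% held a CArG box with 1 changed base, 1.4% an exact one and 12.6% an MCAT element. A match in these letters is a description of the sequence only.

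Total counts ran from 3205822 (replicate 6) to 9366774 (replicate 1), and 3 counts corresponded to between 0.32 and 0.936 CPM, that is, counts per 1000000 counts of the library. Sgo1 itself was read 6, 2 and 4 times in the 3 controls and 6, 0 and 2 times in the heterozygotes, too few to check the genotype. Rag1 had 8 to 24 reads in every library, and which part of the gene they came from was not examined. 3 libraries, described next, stood apart. The library labelled RAG1-/- replicate 2 held 1853 reads of Igkc, the immunoglobulin kappa constant region, against 8 or fewer in any other. Such reads, which mark B-lineage cells, go against a RAG1-/- genotype, and the library was kept as a control under its label. Replicate 1 was the only library with high Xist (824 CPM, others at most 1.62) and low Ddx3y (0.214 CPM, others at least 107), the female pattern. Replicate 6 had 49 genes that reached 10 CPM and were 4-fold or more over the next library, against 0 to 23 such genes in the others. For the smooth muscle genes other than Myocd, log2 fold changes are given with and without each of these 3 libraries. Lung identity was plain from the alveolar type 2 marker Sftpc (12426 to 20390 CPM) and the club cell marker Scgb1a1 (47501 to 72841 CPM).

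**Figure D1:**
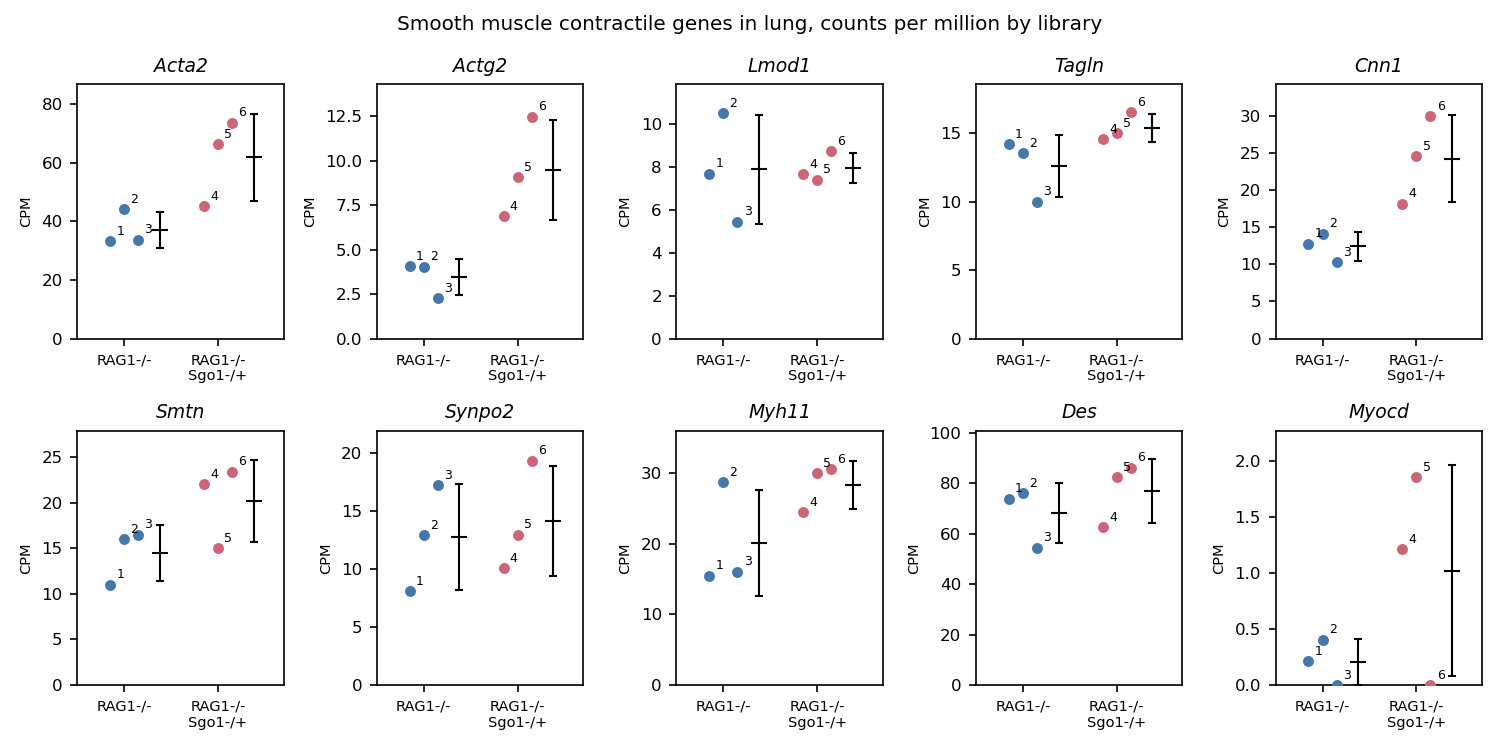
Level of each smooth muscle gene in CPM (vertical axes starting at 0) by genotype. Each point is 1 library with its replicate number, and the bar is the group mean with its SD (n = 3). Acta2, Actg2, Cnn1 and Tagln are the 4 genes whose groups do not overlap, and in Tagln the gap is 0.346 CPM. Myocd rests on 20 reads in all.

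The log2 fold change was above 0 in 10 of the 10 genes in the edgeR estimate. That count includes Myocd, which has too few reads for its fold change to be given. Lmod1 turned to -0.01 under TMM or DESeq2 scaling, and in Des, Lmod1 and Synpo2 the log2 fold change was no more than about its SE. The median log2 fold change of the 10 genes (RAG1-/- Sgo1-/+ over RAG1-/-) was 0.49, or 0.48 without Myocd, against 0.034 over all 17231 genes tested. Across those 17231 genes, 54.9% had a log2 fold change above 0. Leaving out replicate 1, 2 or 6 gave the 10 genes a median of 0.37, 0.70 or 0.41. Of them, 4, Acta2, Actg2, Cnn1 and Tagln, had all RAG1-/- Sgo1-/+ libraries above all RAG1-/- libraries in CPM, where 6.24% of all genes did. The same 4 stood apart under TMM and DESeq2 scaling, for which the share of all genes was not computed. None of the 10 had all RAG1-/- Sgo1-/+ libraries below all RAG1-/- libraries, which held for 5.54% of all genes in CPM. The set was chosen on this contrast, so that count carries no weight as evidence. By edgeR's quasi-likelihood test with Benjamini-Hochberg adjustment no gene of the whole table was called at an adjusted p under 0.05 with at least 2-fold (0% of 17231 genes, smallest adjusted p 0.832), while 5.66% had an unadjusted p under 0.05. DESeq2 called 1 gene and limma-voom 0.

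Among thin filament genes, Acta2 encodes alpha smooth muscle actin, the most abundant actin of vascular smooth muscle. Its level was 33.1, 44.0 and 33.7 CPM in RAG1-/- replicates 1, 2 and 3 and 45.3, 66.3 and 73.6 CPM in RAG1-/- Sgo1-/+ replicates 4, 5 and 6. The groups did not overlap, but the lowest RAG1-/- Sgo1-/+ library (replicate 4) stood only 1.21 CPM above the highest control (replicate 2). The means were 37.0 ± 6.14 and 61.7 ± 14.7 CPM (SD, n = 3 each), a 1.67-fold difference (log2 0.74, SE 0.20). The log2 fold change was 0.66 without replicate 1, 0.88 without replicate 2 and 0.60 without replicate 6. Acta2 is the gene of the 2 CArG-like stretches printed above.

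Actg2, gamma smooth muscle actin, is known mainly from visceral smooth muscle such as that of the gut and was the gene with the largest fold change among those with enough reads for one. It measured 4.06, 4.04 and 2.27 CPM in RAG1-/- and 6.87, 9.08 and 12.5 CPM in RAG1-/- Sgo1-/+ lung, from 15 to 49 reads a library. Every RAG1-/- Sgo1-/+ library was above every control, by at least 2.81 CPM. The means of 3.46 ± 1.03 and 9.47 ± 2.83 CPM (SD, n = 3 each) differed 2.70-fold (log2 1.43, SE 0.37). Without replicate 1, 2 or 6 the log2 fold change was 1.59, 1.54 or 1.20. Acta2 and Actg2 encode nearly identical proteins, yet their transcripts shared no stretch of 50 bases with each other, so reads of 150 bases can tell them apart. Acta2 shared 0.326% of its 50-base stretches with Actg1 and actin pseudogenes.

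Lmod1, leiomodin 1, starts actin filaments in smooth muscle. It measured 7.69, 10.5 and 5.45 CPM in RAG1-/- and 7.68, 7.41 and 8.73 CPM in RAG1-/- Sgo1-/+ lung. Here the controls enclosed the other group on both sides, and the means of 7.88 ± 2.53 and 7.94 ± 0.70 CPM (SD, n = 3 each) gave a log2 fold change of 0.01 (SE 0.31). Its sign depended on single libraries, at 0.0015 without replicate 1, 0.26 without replicate 2, -0.19 without replicate 3 and -0.05 without replicate 6.

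Cnn1, calponin 1, binds actin and tropomyosin and restrains the myosin ATPase. It measured 12.8, 14.1 and 10.3 CPM in RAG1-/- and 18.2, 24.6 and 29.9 CPM in RAG1-/- Sgo1-/+ lung. The groups were separated by 4.04 CPM, the widest gap of the 4 genes without overlap. The means were 12.4 ± 1.96 and 24.3 ± 5.89 CPM (SD, n = 3 each), a 1.94-fold difference (log2 0.96, SE 0.23), and the log2 fold change was 0.99, 1.06 or 0.79 without replicate 1, 2 or 6. Cnn1 shared none of its 50-base stretches with another gene.

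Tagln, transgelin or SM22 alpha, bundles actin filaments and is among the earliest markers of smooth muscle differentiation. It measured 14.2, 13.5 and 9.99 CPM in RAG1-/- and 14.5, 15.0 and 16.5 CPM in RAG1-/- Sgo1-/+ lung. The groups just missed overlapping, and replicate 3 was the low library. The means of 12.6 ± 2.26 and 15.4 ± 1.04 CPM (SD, n = 3 each) gave a log2 fold change of 0.28 (SE 0.22), which was 0.39, 0.33 and 0.23 without replicates 1, 2 and 6 and 0.14 without replicate 3. The value is uncertain because 58.3% of the 50-base stretches of Tagln transcripts also lie, on the opposite strand, in transcripts of Pcsk7 and Gm48529, and the library kit does not mark strand. Pcsk7 itself had 121 to 350 reads a library and a log2 fold change of 0.06 (SE 0.13).

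Smtn, smoothelin, is an actin-binding protein of contractile smooth muscle. It measured 11.0, 16.0 and 16.5 CPM in RAG1-/- and 22.0, 15.0 and 23.4 CPM in RAG1-/- Sgo1-/+ lung, and replicate 5 fell within the range of the controls. The means were 14.5 ± 3.03 and 20.1 ± 4.50 CPM (SD, n = 3 each), with a log2 fold change of 0.48 (SE 0.24). That was 0.30 without replicate 1, 0.55 without replicate 2 and 0.36 without replicate 6. An antisense gene, Gm11946, overlapped 9.46% of its 50-base stretches.

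Synpo2, synaptopodin 2 or myopodin, links actin to the Z-disc and to dense bodies. It measured 8.11, 12.9 and 17.3 CPM in RAG1-/- and 10.1, 13.0 and 19.3 CPM in RAG1-/- Sgo1-/+ lung. Each group spread about as widely as the other and they overlapped almost fully. The log2 fold change of 0.14 (SE 0.33) changed sign to -0.12 without replicate 1 and -0.13 without replicate 6, and was 0.15 without replicate 2 and 0.43 without replicate 3.

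Myh11 encodes the smooth muscle myosin heavy chain, the motor of the thick filament and the most specific single marker of mature smooth muscle. It measured 15.5, 28.7 and 16.0 CPM in RAG1-/- and 24.4, 30.0 and 30.6 CPM in RAG1-/- Sgo1-/+ lung. The control replicate 2 lay within the other group, while replicates 1 and 3 lay below it. The means were 20.1 ± 7.47 and 28.3 ± 3.39 CPM (SD, n = 3 each), a 1.43-fold difference (log2 0.51, SE 0.25). Replicate 2 decided its size, since the log2 fold change was 0.84 without it, against 0.35 without replicate 1 and 0.46 without replicate 6. Replicate 2 is also the library that holds Igkc reads, and the part of that in the Myh11 value was not tested.

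Des, desmin, forms the intermediate filaments that tie dense bodies together, in cardiac and skeletal muscle as well as in smooth muscle. It measured 73.9, 76.0 and 54.5 CPM in RAG1-/- and 62.4, 82.4 and 86.1 CPM in RAG1-/- Sgo1-/+ lung, so replicate 4 lay below 2 of the 3 controls. The means of 68.1 ± 11.8 and 77.0 ± 12.7 CPM (SD, n = 3 each) gave a log2 fold change of 0.17 (SE 0.17). It was 0.24, 0.26 and 0.09 without replicates 1, 2 and 6 and 0.037 without replicate 3.

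Myocd, the myocardin coactivator itself, was read 2, 2 and 0 times in the controls and 6, 10 and 0 times in RAG1-/- Sgo1-/+ lung. Of these 20 reads, the 6 in replicate 4 and the 10 in replicate 5 were above the floor of 3 reads, and every other library was below it. Both groups contain a library at 0, and no fold change is given for Myocd. A difference in Myocd was not detectable at this depth.

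**Figure D2:**
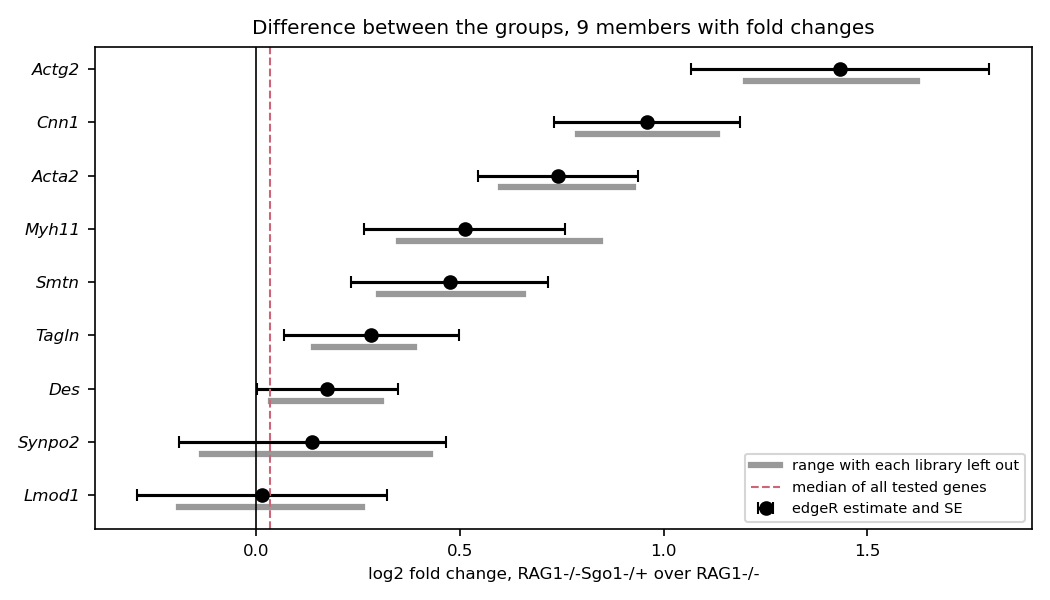
Log2 fold change of RAG1-/- Sgo1-/+ over RAG1-/- for the 9 genes with enough reads (horizontal axis). Points with bars are edgeR estimates with their SE (n = 3 per group), grey bands the range with each library left out in turn, and the dashed line the median of all tested genes, 0.034. Actg2 (1.43), Cnn1 (0.96) and Acta2 (0.74) lead, Lmod1 (0.01) is at the foot, and the bands of Lmod1 and Synpo2 cross 0.

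Per kilobase of transcript, which allows genes to be compared with each other, the order of the genes was not the same in both groups. In RAG1-/- lung Des (18.1 ± 3.16 CPM per kb, SD, n = 3) and Acta2 (16.8 ± 2.80) were the highest and lay within each other's spread, and in RAG1-/- Sgo1-/+ lung Acta2 (28.1 ± 6.71) stood above Des (20.5 ± 3.39), with spreads that still met. Tagln and Cnn1 followed, at 6.33 ± 1.14 and 4.54 ± 0.715 CPM per kb in the controls and at 7.73 ± 0.523 and 8.86 ± 2.15 in RAG1-/- Sgo1-/+ lung, so that they too changed places. Smtn (3.31 ± 0.692 CPM per kb), Myh11 (2.64 ± 0.983), Actg2 (2.22 ± 0.660) and Lmod1 (2.0 ± 0.642) were near each other in the controls. In RAG1-/- Sgo1-/+ lung Actg2 (6.08 ± 1.81) had the highest mean of these 4, before Smtn (4.60 ± 1.03), Myh11 (3.73 ± 0.446) and Lmod1 (2.01 ± 0.177). Synpo2 was at 0.975 and 1.08 CPM per kb, and Myocd was the lowest gene in both groups.

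The libraries had an order that most of the genes shared. Of the 9 genes other than Myocd, 8 had their highest level of all 6 libraries in replicate 6, the shallowest library, and the other, Lmod1, in replicate 2. The lowest of the 6 libraries was replicate 1 for 4 genes and replicate 3 for 5. Within the RAG1-/- Sgo1-/+ group replicate 4 was the lowest in 7 of the 9 genes. Summed over the 10 genes, the level was 181, 220 and 166 CPM in the controls and 213, 265 and 301 CPM in RAG1-/- Sgo1-/+ lung, so that replicate 2 and replicate 4 overlapped. As a description over all 6 libraries, 33 of the 36 pairs among the 9 genes had a correlation above 0, with a median r of 0.61. Depth differed between libraries, and all genes of a library share its depth and total-count scaling. Both groups entered r, so the contrast on which the set was chosen is part of it. Correlation within a group, or over pairs of other genes, was not computed, so these values carry no weight as evidence. The tightest pairs were Cnn1 with Actg2 (r = 0.99) and Acta2 with Cnn1 (r = 0.97), and the loosest was Tagln with Synpo2 (r = -0.17). Des and Smtn had r = -0.01, although both peaked in replicate 6.

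Ratios between genes of the same library do not depend on library scaling, and Des was taken as the denominator after its values were seen. Per 100 Des reads, Acta2 reads numbered 44.8, 58.0 and 61.9 in the controls and 72.5, 80.4 and 85.5 in RAG1-/- Sgo1-/+ lung. Actg2 had 5.49, 5.32 and 4.17 against 11.0, 11.0 and 14.5 reads, and Cnn1 had 17.3, 18.6 and 18.9 against 29.1, 29.9 and 34.8. In all 3 cases every RAG1-/- Sgo1-/+ library was above every control, and for Cnn1 each group was tight. Replicates 2 and 4, which came close in the plain Acta2 level, were 58.0 and 72.5 once divided by Des. Des itself stood at 76.0 CPM in replicate 2 and at 62.4 CPM in replicate 4. The other 5 genes overlapped when set against Des. Myh11 ran from 21.0 to 37.8 and from 35.5 to 39.2 reads per 100 Des reads, and Tagln from 17.8 to 19.2 and from 18.2 to 23.3. Among the actins, Actg2 had 12.3, 9.17 and 6.73 reads per 100 Acta2 reads in the controls and 15.2, 13.7 and 16.9 in RAG1-/- Sgo1-/+ lung, again without overlap. Cnn1 had 90.2, 104 and 103 reads per 100 Tagln reads against 125, 164 and 181. These ratios show unequal differences within the set and not that Des itself was equal in both groups. Acta2, Actg2 and Cnn1 had the largest fold changes among the genes with enough reads, and the set was chosen on this contrast. Their separation against Des therefore carries no weight as evidence. The share of all genes that separate the groups per Des read was not computed.

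**Figure D3:**
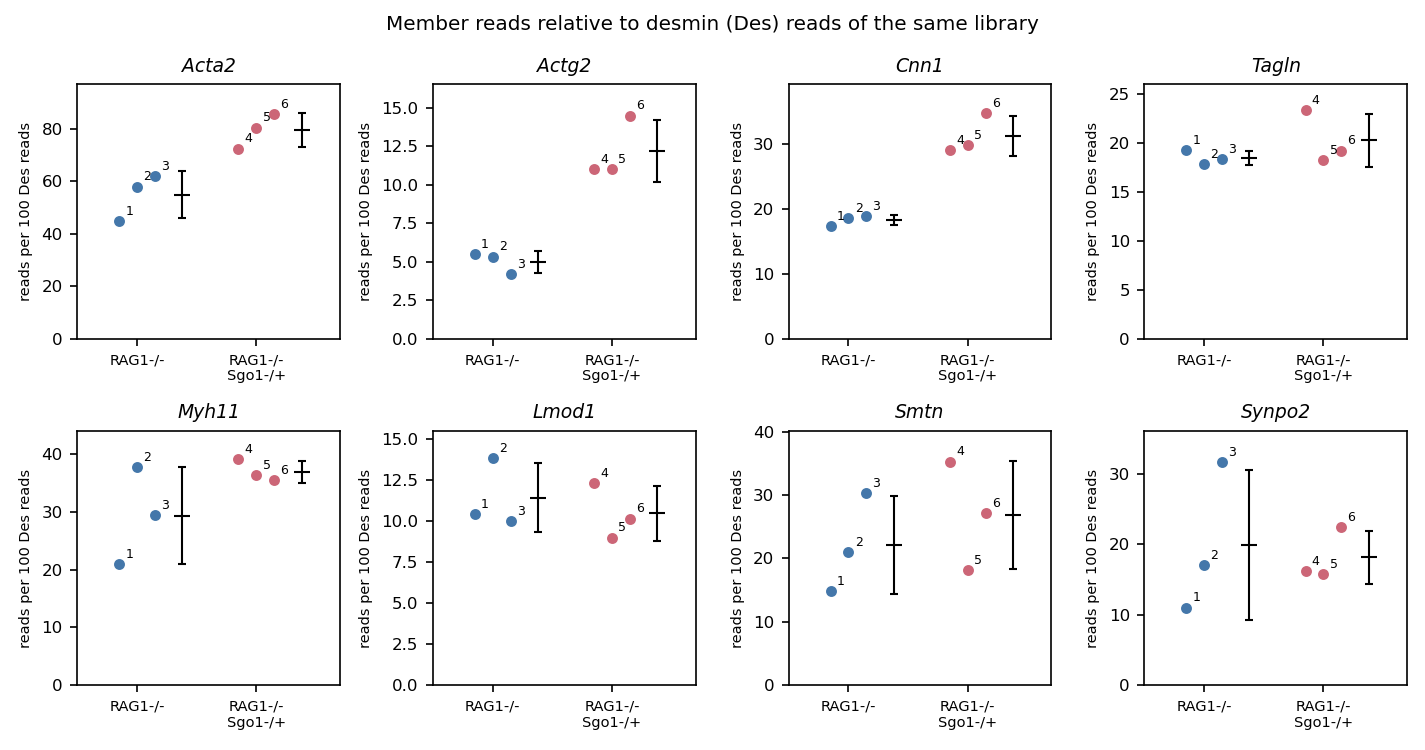
Reads of 8 smooth muscle genes per 100 Des reads of the same library (vertical axes starting at 0), by genotype. Points are libraries with their replicate numbers, and bars are group means with SD (n = 3). Acta2, Actg2 and Cnn1 separate the groups (Cnn1 at most 18.9 in RAG1-/- and at least 29.1 in RAG1-/- Sgo1-/+), and the other 5 genes overlap. All were chosen with this contrast known.

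The relatives of these genes, 17 paralogs used in other cells or other muscle, were a further set for comparison. None was called at an adjusted p under 0.05 by edgeR, 10 had a log2 fold change above 0 and 7 below, and only Synpo had an unadjusted p under 0.05. Actb, the cytoplasmic beta actin, measured 583 to 800 CPM in RAG1-/- and 727 to 862 CPM in RAG1-/- Sgo1-/+ lung (log2 fold change 0.24, SE 0.15). Actc1, the cardiac actin, had a log2 fold change of 0.22 (SE 0.22), Myh9, a non-muscle myosin heavy chain, 0.27 (SE 0.15) and Tagln2 0.30 (SE 0.14). Cnn2, a calponin of non-muscle cells, stood at -0.03 (SE 0.16) and Cnn3 at -0.16 (SE 0.16). Set against a relative (Acta2 with Actb, Cnn1 with Cnn2, Myh11 with Myh9, Tagln with Tagln2), none of these 4 genes separated the groups. Acta2 per 100 Actb reads ran from 4.14 to 7.55 and from 5.25 to 9.52, and Cnn1 per 100 Cnn2 reads from 2.85 to 4.63 and from 4.35 to 10.1. The list's median of 0.22 was not steady, at 0.079, 0.058 and 0.085 without replicates 1, 2 and 6.

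The rest of the contractile apparatus, 22 genes for the light chains, tropomyosins, kinases, phosphatase, channels and cyclic GMP enzymes, had 21 genes tested. Kcnma1, with 4 reads in 1 library, was the one left out. In all, 10 were above 0 and 11 below, with a median of -0.0025 (0.062 without replicate 6), and 0 were called at an adjusted p under 0.05 by edgeR. Of the list, 3 had an unadjusted p under 0.05 and are named for that after their values were seen. Myl9, the regulatory light chain that myosin light chain kinase phosphorylates in smooth muscle, measured 43.6, 47.7 and 46.8 CPM in RAG1-/- and 59.0, 59.3 and 64.3 CPM in RAG1-/- Sgo1-/+ lung. Its groups did not overlap and its log2 fold change was 0.40 (SE 0.12, unadjusted p 0.00767, adjusted p 0.832), or 0.36 to 0.43 with each library left out. Of the 21 tested genes, 2, Myl9 among them, had all RAG1-/- Sgo1-/+ libraries above the controls, and 1 had all of them below. Over all tested genes, 11.8% had groups that did not overlap, in either direction. Tpm2, beta tropomyosin, had a log2 fold change of 0.47 (SE 0.20), which was 0.29 without replicate 6, and Pde5a, the cyclic GMP phosphodiesterase, one of -0.32 (SE 0.14). The most abundant 3 of the list were Ppp1cb, a catalytic subunit of myosin phosphatase, at -0.15 (SE 0.14), the GTPase gene Rhoa at -0.0025 (SE 0.13) and the tropomyosin gene Tpm1 at 0.10 (SE 0.12).

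Of the 11 genes for SRF, its partners and other regulators of the programme, none was called and none had an unadjusted p under 0.05 in edgeR. Of these, 8 were above 0 and 3 below, with a median of 0.084, which was 0.037 without replicate 2, 0.027 without replicate 4, 0.14 without replicate 5 and 0.17 without replicate 6. Srf measured 61.8, 53.3 and 71.6 CPM in RAG1-/- and 83.0, 76.5 and 56.8 CPM in RAG1-/- Sgo1-/+ lung, which overlapped because replicate 6, the library highest in most contractile genes, was low. Mrtfa and Mrtfb, the widely expressed relatives of myocardin, had log2 fold changes of 0.05 (SE 0.15) and -0.15 (SE 0.13). Tead1, which binds MCAT elements, stood at 0.10 (SE 0.17), and Klf4, which represses smooth muscle genes in cultured cells, at 0.14 (SE 0.24). Csrp2, a LIM protein of smooth muscle, was the only one of the 11 whose groups did not overlap, with 24.8, 15.0 and 22.4 CPM against 29.3, 28.7 and 25.9 CPM (log2 fold change 0.42, SE 0.20, and 0.25 without replicate 2).

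Receptors through which smooth muscle is told to contract or relax numbered 14, with 5 above 0, 9 below and 0 called. Their median of -0.043 was -0.20 without replicate 1, -0.19 without replicate 4, -0.15 without replicate 5, -0.32 without replicate 6, -0.25 at equal depth and 0.12 without replicate 3, so it gave no steady direction. Tbxa2r, the thromboxane receptor, measured 5.02, 9.70 and 5.75 CPM in RAG1-/- and 3.23, 2.59 and 1.87 CPM in RAG1-/- Sgo1-/+ lung, and the groups did not overlap. Its log2 fold change was -1.36 (SE 0.41, unadjusted p 0.00768, adjusted p 0.832 by edgeR), from 6 to 48 reads a library, and it ran from -1.56 to -1.04 with each library left out. Agtr1a, the angiotensin II receptor, also had all RAG1-/- Sgo1-/+ libraries below the controls (13.3 to 15.8 against 9.29 to 13.1 CPM). These were 2 of the 14 genes, where 5.54% of all tested genes had all RAG1-/- Sgo1-/+ libraries below the controls. Ptgir, the prostacyclin receptor, was 41.8 CPM in replicate 6 and between 5.86 and 8.47 CPM in the other 5 libraries, and its log2 fold change of 1.33 became -0.08 without that library. Ednra, the endothelin A receptor, stood at -0.02 (SE 0.20).

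The list of 20 cytoskeletal and adhesion genes held 12 above 0 and 8 below, with a median of 0.038 (0.061 without replicate 6 and -0.058 without replicate 4) and 0 called. Its 3 most abundant genes were Tns1 (log2 fold change 0.10, SE 0.17), Itgb1 (-0.03, SE 0.14) and Csrp1 (-0.05, SE 0.14). Tln1, encoding talin 1 and named after its values were seen, had an unadjusted p under 0.05 in edgeR, with a log2 fold change of 0.28 (SE 0.12).

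**Figure D4:**
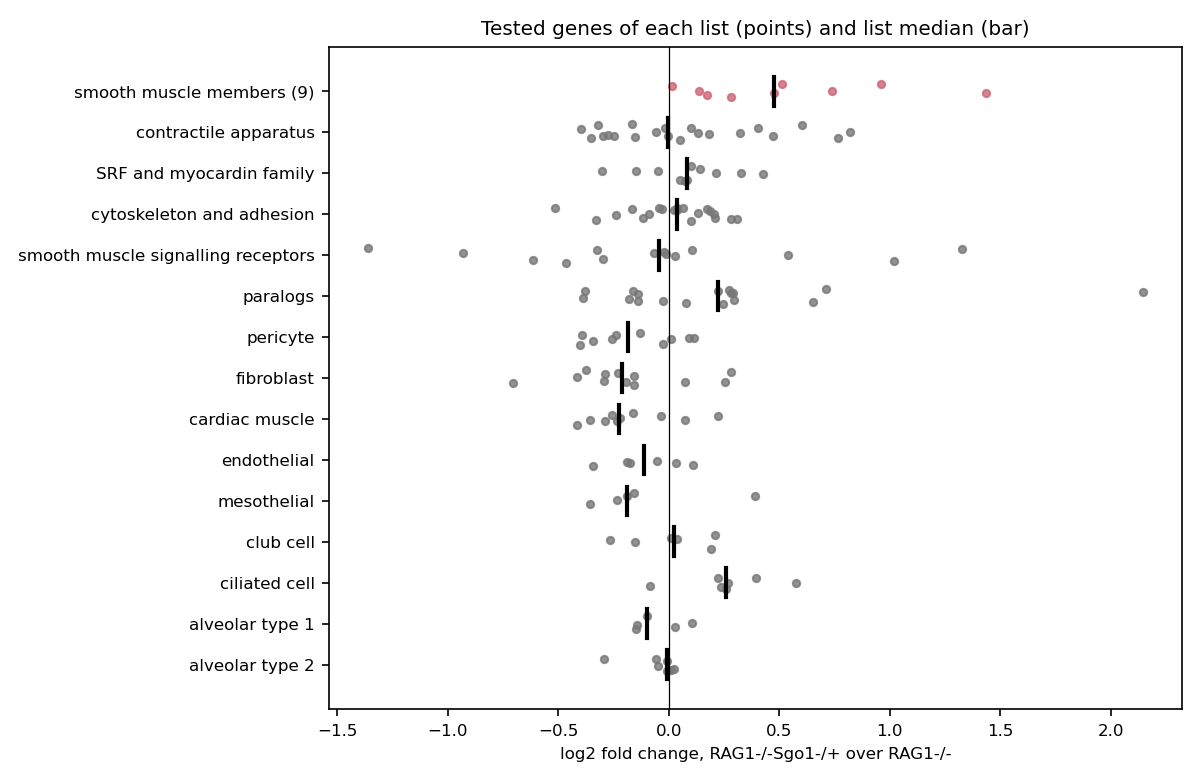
Log2 fold change of RAG1-/- Sgo1-/+ over RAG1-/- (horizontal axis) for the tested genes of each list, 1 point per gene, with the list median as a black bar. The 9 smooth muscle genes other than Myocd (median 0.48) were chosen with this contrast known, and Lmod1 among them turns to -0.01 under TMM or DESeq2 scaling. The contractile apparatus has its median at -0.0025 and the SRF family at 0.084.

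Markers of neighbouring cells were set beside the smooth muscle genes. Pericytes, which wrap capillaries and share Acta2 with smooth muscle under some conditions, had 3 of 10 markers above 0, 7 below and a summed level of 335 to 426 CPM in RAG1-/- and 306 to 373 CPM in RAG1-/- Sgo1-/+ lung. Their most abundant markers were Mcam (log2 fold change -0.03, SE 0.13), Pdgfrb (-0.26, SE 0.18) and Notch3 (0.09, SE 0.14). Fibroblast markers had 3 of 12 above 0 and a summed level of 2787 to 4154 and 2424 to 3559 CPM, with Inmt at -0.29 (SE 0.18), Dcn at -0.41 (SE 0.43) and Col3a1 at -0.23 (SE 0.27). The summed levels of both lists overlapped between the groups. The pericyte median was -0.18, but -0.0047 without replicate 2, -0.29 without replicate 4 and 0.026 without replicate 6. The fibroblast median was -0.21, but -0.035 without replicate 3, -0.13 without replicate 6, -0.37 without replicate 1 and -0.40 without replicate 4.

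Des and some other muscle genes are also used by heart muscle, which reaches the lung veins in mice. Cardiac markers were present in every library, with a summed level of 155 to 294 CPM in RAG1-/- and 171 to 278 CPM in RAG1-/- Sgo1-/+ lung, and 2 of the 10 were above 0. Their median of -0.23 ran from -0.48 without replicate 6 to 0.037 without replicate 3. Actc1 measured 31.9 to 54.8 and 38.6 to 60.5 CPM, and Myh6, the atrial myosin heavy chain, 24.2 to 55.1 and 20.2 to 35.8 CPM. Skeletal muscle markers summed to 7.47 to 15.0 CPM over all libraries, and its defining genes Myh1, Myh2, Myh4 and Tnnc2 had 0 reads. Of 9 cartilage markers, which would mark large airway wall, 6 had 3 or fewer reads in every library (Acan, Col2a1, Matn1, Cnmd, Col9a1 and Col9a2), but Chad measured 30.6 to 55.3 and 35.0 to 71.1 CPM. The part of these cells in the levels of the smooth muscle genes was not tested.

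Airway and vessel markers had 0 genes called. Club cell markers had a median log2 fold change of 0.023 over 6 genes (-0.13 to 0.11 with each library left out), and the ciliated cell markers one of 0.26 over 7 (0.15 without replicate 5 to 0.42 without replicate 1), with 6 of 7 above 0, 0 called and a summed level of 1090 to 1545 and 1354 to 1748 CPM. Foxj1, the factor that directs motile cilia, was the only one of the 7 with an unadjusted p under 0.05 (log2 fold change 0.58, SE 0.24, from 0.39 without replicate 5 to 0.88 without replicate 1). Endothelial markers had a median of -0.11 over 6 genes (-0.17 to -0.020 with each library left out, the latter without replicate 6), with Cdh5 at -0.19 (SE 0.15). Alveolar type 1 and type 2 markers had medians of -0.10 and -0.010, which ran from -0.28 to 0.042 and from -0.12 to 0.045 with each library left out. Mesothelial markers summed to 93.8 CPM in replicate 1, the library with the lowest level of 4 of the 9 genes, and to between 400 and 1129 CPM in the other libraries. The highest sum, 1129 CPM, was in replicate 3, the library with the lowest level of the other 5 genes. The mesothelial median of -0.19 had no steady direction, at -0.76 without replicate 1, 0.31 without replicate 3 and 0.82 by limma-voom. Whether the amount of pleura or airway in each piece of lung bears on the smooth muscle genes was not tested.

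Genes outside the set with the profile most like the mean log2 CPM of the 10 genes were sought among 12432 genes at 5 CPM or more. The closest were Commd4 (r = 0.99 over 6 libraries), Eya3, Sfxn3, Pik3r3, Arrdc1, Cdk16, Zfp7, Fam151a, Tbc1d10b and Larp1, the last with r = 0.97. None of the 10 stood in any list above. The ranking depended on Myocd, a gene with only 20 reads in all. Without Myocd in the mean, a choice made after seeing the data, replicate 6 became the highest library (4.70 against 4.42 in replicate 5, where it had been 4.08 against 4.09 with Myocd), and 3 of the first 10 genes (Zfp7, Cdk16 and Arrdc1) were shared, with Mast3 the closest (r = 0.99) and Commd4 at rank 22. Commd4 measured 24.0, 26.7 and 21.9 CPM in RAG1-/- and 28.9, 30.7 and 32.1 CPM in RAG1-/- Sgo1-/+ lung, a narrower range than that of Acta2 or Cnn1. With 6 libraries and so many candidates, values of r this high are a description of the ranking and no more.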

How the data were processed

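Lung RNA of 6 mice was prepared with a TruSeq V2 kit and sequenced on a MiSeq as paired reads of 150 bases. The authors deposited a table of counts per gene, with mouse build 37.2 in its header. The submitters' processing notes name BWA and edgeR, with no version given, and the study's methods name GeneSifter. A further table of the authors' own comparison (group means, ratios, p-values and ontology terms) was not used. Settings for strand, multiply mapped reads and mates are not given in the sources used here, and 63.5 to 69.0% of the counts above 0 were even. The values were whole numbers with a different total in each library, and CPM was computed from each library's total. Of 25860 genes, 93.0% had a symbol, and the 17231 with at least 10 counts over the 6 libraries were fitted with edgeR 4.0.16 in R 4.3.3 (quasi-likelihood, total count as library size, prior count 0.125, Benjamini-Hochberg), after a check on simulated counts. A gene was called at an adjusted p under 0.05 and at least 2-fold, after the correction and thresholds that the study's methods name. The study reported both upregulated and downregulated genes at its thresholds, and why none was called here was not tested. Alternatives used TMM, limma 3.58.1, DESeq2 1.42.0, other filters, equal depth, halved counts and each library left out. The floors of 3 counts cover counting error only. The SE of a fold change was derived from the log2 fold change and edgeR's F statistic, and so includes the spread between libraries. A p-value from edgeR sets the difference against that spread over 3 mice a group, which edgeR moderates with the help of all tested genes.

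The members and gene lists were chosen with earlier results of these data known. Genes were named by rule: the 10 members, any SRF, receptor or paralog gene with at least 60 counts, the 3 most abundant genes of each other list, the 10 closest profiles, and Sgo1, Rag1, Igkc, Xist and Ddx3y. Others are named in the text as chosen after their values were seen or as markers at the floor. Shared sequence was counted as exact 50-base stretches of annotated transcripts. Some genes of these lists are not reported here by name.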

Additional observations from a re-analysis of the deposited data

How the results depend on the processing

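No paired analysis was possible because the groups share no replicate numbers. The count of genes called, 0 by edgeR, was 1 by the DESeq2 Wald test (Awat1), 233 at an unadjusted p under 0.05 with 2-fold, and 0 to 1 with each library left out, the 1 (H2-K1) being without replicate 5, both named after their values were seen. The number of smooth muscle genes with a log2 fold change below 0, which was 0, became 1 under TMM factors, DESeq2 size factors and the DESeq2 Wald test (Lmod1 in each), and 0 to 2 with each library left out. Their median of 0.49 ran from 0.37 to 0.70 with each library left out and from 0.47 to 0.55 under the other alternatives. The paralog median of 0.22 became 0.035 at equal depth and 0.025 with counts halved, the last chosen after seeing the data, and ran from 0.058 to 0.20 with each library left out. With each library left out, the median ran from -0.017 to 0.062 for the contractile apparatus, from -0.058 to 0.061 for the cytoskeleton, from -0.44 to 0.27 for skeletal muscle and from -0.54 to 0.35 for cartilage, which rests on 2 tested genes. The causes were not tested. The other 11 lists moved by less than the spread between their replicates, but the median of 11 of the 16 lists turned its sign under at least 1 alternative, the mesothelial list to 0.82 by limma-voom and the club cell list to -0.0031 under TMM among them. The SRF family, paralogs, fibroblast, ciliated and endothelial lists, 5 in all, kept theirs. Depth limits Myocd, Sgo1 and most receptors, which have few reads.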
